A study of Mus musculus with 94 samples.

Results

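The genes described here are 10 genes by which fat cells are usually recognised. They were taken by name (Adipoq, Lep, Plin1, Plin4, Fabp4, Cidec, Pparg, Retn, Cfd and Lpl), not by a threshold on a measured value, and all 10 were found among the 49080 genes of the table. Total RNA was sequenced from 94 tumors that grew from 4T1 cells (a mammary carcinoma line of the mouse, used as a model of TNBC) under the skin of the right hind limb of female BALB/c mice implanted at 8 weeks of age. The mice received a single dose of 6 Gy radiation together with INDO (6 Gy + INDO, 24 tumors), 6 Gy alone (25), INDO alone (25) or neither (untreated controls, 20). INDO is indomethacin, a nonsteroidal antiinflammatory drug that inhibits COX1 and COX2, drunk with the water at 30 mg/L for as long as the experiment ran. Tumors were taken on days 1, 3, 7, 15 and 23 after irradiation (IR), with 5 per treated group except 4 on day 3 of 6 Gy + INDO, and with 4, 5, 5, 3 and 3 untreated controls on the 5 days. The design asks whether 6 Gy, INDO or both changed the level of these genes against the untreated controls of the same day. The model is 1 tumor line at 1 site. The labels call the 4T1 cells epithelial, and a tumor sample also holds RNA of whatever host tissue was taken with it. All 8 tumor epithelium markers, with Cldn7 the lowest, had counts in every tumor, summing to 1785 to 3059 CPM with 6 Gy + INDO, 1881 to 3676 CPM with 6 Gy and 1989 to 4350 CPM with INDO, against 1935 to 4333 CPM in controls. In RNA from whole tumors, fewer cells of a type and less RNA per cell cannot be told apart.

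Fat cells store triglyceride in a single large lipid droplet and secrete hormones. PPARG and the C/EBP proteins are the transcription factors that drive a precursor to become a fat cell, and they then switch on the genes for the droplet coat (perilipins and CIDEC), for fatty acid uptake and transport (LPL and FABP4) and for secreted proteins (adiponectin, leptin, resistin and adipsin). The subcutaneous tissue of a mouse hind limb holds a layer of fat, and a tumor implanted there grows against it. Several of these genes are also expressed elsewhere. Fabp4 is expressed in capillary endothelium and some macrophages, Lpl in muscle and macrophages, Pparg in macrophages, and Plin4 in skeletal muscle.

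Promoter sequences are shown because the genes moved together and because the binding motif of the C/EBP proteins was found in several of them. RefSeq sequences (250 bases before to 50 after each start, GRCm38.p6) gave 11 promoters for 8 of the 10 genes, all but Fabp4 and Lpl. The motif TTGCNNAA, searched on both strands, was present in 4 of the 11, belonging to Lep, Cidec, Pparg and Plin1, and in 10.8% of the 32851 mouse promoters of the same length. In the sequences below the capitals mark the motif, with 25 bases on either side, read 5′ to 3′ in the direction of the gene.
Lep (chr6:29060141-29060198, plus strand): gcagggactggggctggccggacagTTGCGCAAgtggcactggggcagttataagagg
Cidec (chr6:113434930-113434987, minus strand): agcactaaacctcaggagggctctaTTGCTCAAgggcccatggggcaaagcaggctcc
Pparg (chr6:115422025-115422082, plus strand): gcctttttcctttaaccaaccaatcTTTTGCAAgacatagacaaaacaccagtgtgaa
Plin1 (chr7:79732802-79732859, minus strand): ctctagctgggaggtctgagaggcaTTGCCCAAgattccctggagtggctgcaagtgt
The capitals begin 55 bases before the RefSeq start of Lep, 198 before that of Cidec, 16 before that of Pparg, where the motif lies on the opposite strand, and 58 before that of Plin1. The same promoters of Pparg and Plin1 each held a further match, 215 and 187 bases before the start. A direct repeat of the half-site AGGNCA with 1 base between, of the kind that PPARG binds with its partner RXR, was in 0.381% of all promoters and in none of the 11. TATAAA was in 13.6% of all promoters and in 1 of the 11, at Pparg. These matches describe the letters in these windows only.

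Median library totals were 37498218 counts with 6 Gy + INDO, 66638860 with 6 Gy and 41045071 with INDO, against 73437401 in controls, and single libraries ranged between 20995830 and 109300093 counts. At these depths the rarest of the genes were counted in single reads, and Lep was at 0 counts in 10 of 24, 10 of 25 and 11 of 25 tumors of 6 Gy + INDO, 6 Gy and INDO, against 2 of 20 controls. In 11 tumors, reads on olfactory and vomeronasal receptor genes summed to over 300 CPM. They were 8 of 6 Gy + INDO (replicates 1, 2 and 4 of day 3, 2, 3 and 5 of day 7, and 2 and 4 of day 23), INDO day 1 replicate 5 and day 15 replicate 3, and control day 15 replicate 1. No 2 tumors had identical values.

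Untreated tumors held transcripts of these genes at the start of the time course and much less of them at its end, and all 3 treatments were at the low level from day 1. CPM, the unit of level used throughout, is a gene's counts scaled to a common library size with TMM factors. Summed over the 10 genes, the controls had a median of 170.5 CPM on day 1, 81.4 on day 3, 88.4 on day 7, 11.9 on day 15 and 16.9 on day 23. The medians of the 15 treated groups lay between 7.02 and 31.1 CPM, and the highest treated tumor, INDO day 7 replicate 2, had 72.3 CPM. The plot of each gene by tumor shows the highest control mean on day 1 for all 10 genes.

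**Figure D1:**
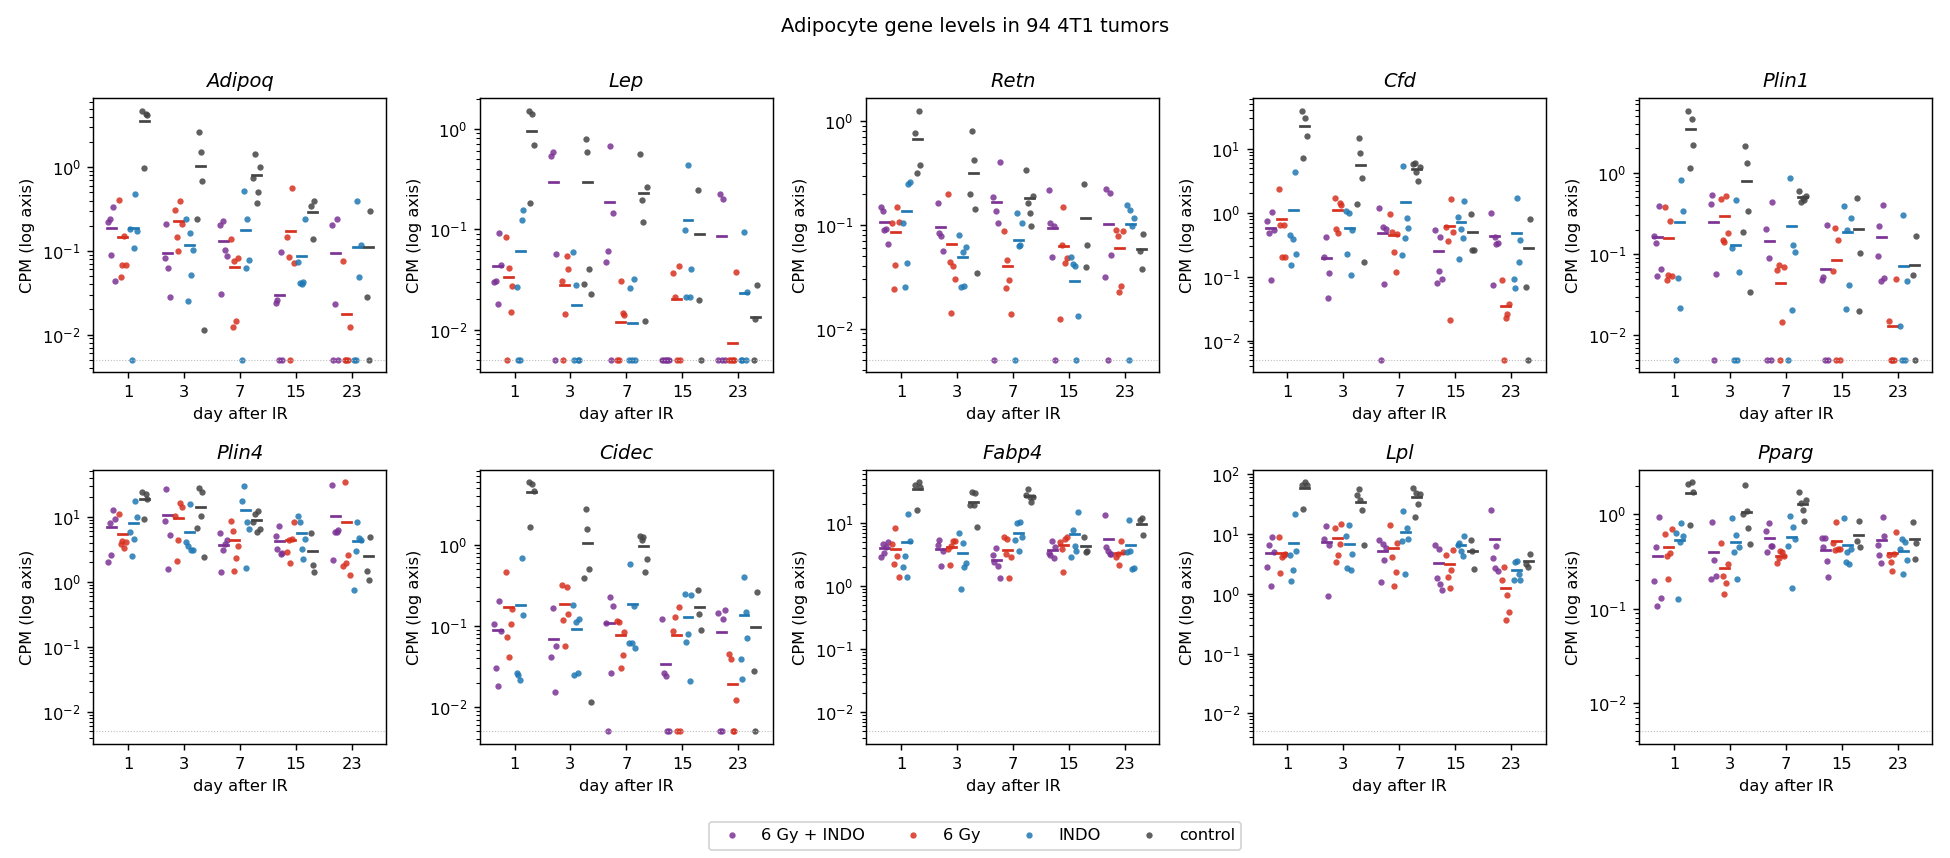
Level of the 10 adipocyte genes in each of 94 tumors as CPM on a log axis, by day after IR, with 6 Gy + INDO, 6 Gy, INDO and control from left to right on each day. Points are tumors, points on the dotted line are tumors with 0 counts, and bars are group means. The controls of day 1 stand highest, with Adipoq at 0.0435 to 0.332 CPM with 6 Gy + INDO, against 0.985 to 4.75 CPM in controls, and on day 23 the 4 groups overlap for Adipoq.

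Per kilobase of exon, the order of the genes in control tumors on day 1 was Cfd (24.96 ± 15.7 CPM per kb), Fabp4 (7.71 ± 2.80), Lpl (5.48 ± 2.03), Plin4 (3.23 ± 1.14), Adipoq (2.58 ± 1.26), Cidec (2.39 ± 1.05), Plin1 (0.743 ± 0.463), Pparg (0.575 ± 0.221), Retn (0.432 ± 0.278) and Lep (0.282 ± 0.188; SD, n = 4). Only the step from Cidec to Plin1 was larger than the SDs of both neighbours added together. Averaged over the 74 treated tumors, Plin4 (1.19 CPM per kb), Fabp4 (0.988), Cfd (0.678) and Lpl (0.543) came first in that order, followed by Pparg (0.154), Adipoq (0.0898), Cidec (0.0589), Retn (0.0534), Plin1 (0.0318) and Lep (0.0179). The first 4 genes were the same in both orders. The length used joins all annotated exons of a gene. For Fabp4 it was 4489 bases, the whole span of the gene from its first to its last base. The value of Fabp4 per kilobase would be higher with a shorter transcript, so its place in both orders rests on this length.

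On day 1 after IR the secreted products of fat cells were low in every treated tumor. Adipoq encodes adiponectin, a hormone made almost only by fat cells (chr16:23146536-23158028, plus strand, GRCm38). Adipoq had 0.225, 0.242, 0.0896, 0.332 and 0.0435 CPM with 6 Gy + INDO, 0.401, 0.0485, 0.0682, 0.150 and 0.0675 CPM with 6 Gy and 0.185, 0, 0.107, 0.480 and 0.172 CPM with INDO, against 4.75, 0.985, 4.33 and 4.19 CPM in controls. Control replicate 2 was the lowest control for all 10 genes, and its Adipoq was still above that of the highest treated tumor. The log2 fold change of Adipoq was -4.21 ± 0.72 with 6 Gy + INDO (adjusted p = 0.000392), -4.61 ± 0.74 with 6 Gy (0.000374) and -4.11 ± 0.72 with INDO (0.000828; SE, edgeR quasi-likelihood test with Benjamini-Hochberg adjustment, as for every adjusted p below).

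Cfd, adipsin, is a serine protease of the alternative complement pathway that mouse fat secretes in large amounts (chr10:79890853-79892655, plus strand). Cfd had 0.734, 0.485, 0.0896, 1.03 and 0.544 CPM with 6 Gy + INDO, 2.36, 0.631, 0.204, 0.631 and 0.203 CPM with 6 Gy and 0.449, 0.150, 0.385, 4.34 and 0.224 CPM with INDO, against 39.4, 7.04, 30.1 and 15.6 CPM in controls. The groups did not overlap, and the fall was 39.3-fold with 6 Gy + INDO, 28.7-fold with 6 Gy and 19.7-fold with INDO (log2 fold changes -5.30 ± 0.99, -4.84 ± 0.96 and -4.30 ± 0.94, adjusted p = 0.000792, 0.00223 and 0.00473). INDO day 1 replicate 4 stood out among the treated tumors, at 4.34 CPM of Cfd. Lep, the satiety hormone leptin (chr6:29060220-29073877, plus strand), had 0.0300, 0.0303, 0.0179, 0.0923 and 0.0435 CPM with 6 Gy + INDO, 0.0844, 0, 0.0409, 0.0150 and 0.0270 CPM with 6 Gy and 0.0264, 0, 0, 0.123 and 0.155 CPM with INDO, against 1.51, 0.181, 1.41 and 0.681 CPM in controls. It also did not overlap and fell in each treatment (log2 fold changes -4.41 ± 0.77, -4.72 ± 0.79 and -3.69 ± 0.73). Retn, resistin, a hormone that mouse fat cells secrete (chr8:3655770-3660110, plus strand), fell too, with log2 fold changes of -2.62 ± 0.56 with 6 Gy + INDO, -2.92 ± 0.57 with 6 Gy and -2.19 ± 0.55 with INDO, without overlap. Without control replicate 3 the INDO call of Retn was lost (adjusted p = 0.0717).

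The droplet genes behaved in the same way except for Plin4. Cidec promotes the fusion of droplets into 1 large droplet (chr6:113424634-113435760, minus strand), and it showed the largest fall of the list with 6 Gy + INDO and with INDO on day 1. Cidec had 0.105, 0.0303, 0.0179, 0.203 and 0.0871 CPM with 6 Gy + INDO, 0.464, 0.0728, 0.0409, 0.105 and 0.162 CPM with 6 Gy and 0.0264, 0.0250, 0.0214, 0.686 and 0.138 CPM with INDO, against 5.86, 1.64, 5.63 and 4.58 CPM in controls. All treated tumors were below all controls, and the log2 fold changes were -5.62 ± 0.89, -4.72 ± 0.84 and -4.44 ± 0.82 (adjusted p = 0.000195, 0.000884 and 0.00137). Plin1, the perilipin that guards the droplet of white fat cells from lipases (chr7:79720218-79732903, minus strand), averaged 0.162 ± 0.135 CPM with 6 Gy + INDO, 0.159 ± 0.152 CPM with 6 Gy and 0.245 ± 0.345 CPM with INDO, against 3.45 ± 2.15 CPM in controls (SD, n = 5, 5, 5 and 4). Plin1 fell in all 3 treatments, with log2 fold changes of -4.38, -4.44 and -3.66.

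Plin4, a perilipin that coats small droplets (chr17:56100591-56109803, minus strand), had 2.02, 8.03, 2.54, 12.9 and 9.32 CPM with 6 Gy + INDO, 11.2, 3.88, 4.23, 3.29 and 4.16 CPM with 6 Gy and 5.78, 2.48, 4.49, 17.2 and 9.76 CPM with INDO, against 23.8, 9.33, 22.7 and 18.8 CPM in controls. Each treated group overlapped control replicate 2. Plin4 passed the test with 6 Gy only (-1.79 ± 0.56, adjusted p = 0.0377), and had -1.41 ± 0.56 (adjusted p = 0.0736) with 6 Gy + INDO and -1.19 ± 0.56 (0.159) with INDO. The 6 Gy call was lost when any of 7 tumors was left out (6 Gy replicates 2, 3, 4 or 5, control replicates 1, 3 or 4, adjusted p = 0.0612 to 0.0929). An exon of Plin4 overlaps an exon of Hdgfl2 on the opposite strand, and no source used here states whether reads were counted by strand.

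The genes of fatty acid handling, Fabp4 and Lpl, fell in all 3 treatments. Fabp4, a carrier of fatty acids in the cytoplasm (chr3:10204088-10208576, minus strand), had 2.94, 4.67, 3.37, 4.19 and 5.12 CPM with 6 Gy + INDO, 4.60, 2.23, 8.51, 2.99 and 1.40 CPM with 6 Gy and 2.01, 3.00, 1.41, 13.97 and 5.20 CPM with INDO, against 39.9, 16.2, 44.4 and 37.9 CPM in controls. Lpl, the lipase that frees fatty acids from circulating lipoproteins (chr8:68880491-68907448, plus strand), had 2.74, 6.56, 1.36, 8.72 and 4.96 CPM with 6 Gy + INDO, 9.04, 2.21, 4.16, 4.40 and 4.56 CPM with 6 Gy and 4.52, 1.65, 2.50, 21.1 and 5.23 CPM with INDO, against 64.7, 26.00, 72.7 and 66.2 CPM in controls. Neither gene overlapped. Fabp4 fell 8.50-fold with 6 Gy + INDO, 8.69-fold with 6 Gy and 6.56-fold with INDO (adjusted p = 0.000836, 0.00127 and 0.00363), and Lpl 11.7-fold, 11.7-fold and 7.97-fold (0.000708, 0.00118 and 0.00406). Pparg, the nuclear receptor that directs fat cell differentiation (chr6:115360951-115490399, plus strand), averaged 0.366 ± 0.350 CPM with 6 Gy + INDO, 0.455 ± 0.201 CPM with 6 Gy and 0.533 ± 0.253 CPM with INDO, against 1.70 ± 0.651 CPM in controls. Its log2 fold changes were -2.19 ± 0.56 (adjusted p = 0.00862), -1.88 ± 0.56 (0.0279) and -1.61 ± 0.55 (0.0574), of which the last did not pass. The 6 Gy call was lost without 6 Gy replicate 3 or 4 or control replicate 1, 3 or 4 (adjusted p = 0.0549 to 0.0756).

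Counted over the list, 9 of 10 genes were lower with 6 Gy + INDO, 10 of 10 with 6 Gy and 8 of 10 with INDO on day 1. Of all 22276 genes tested, 13.3%, 9.43% and 8.89% were lower in these comparisons. The median log2 fold changes of the 10 genes were -3.88, -3.99 and -3.33, against 0.02, 0.06 and 0.04 over all genes tested. Every treated tumor was below every control in 8, 9 and 8 of the 10 genes, against 13.7%, 8.92% and 12.1% of all genes tested. The 3 comparisons share the same 4 control tumors, and on every other day they share the controls of that day.

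**Figure D2:**
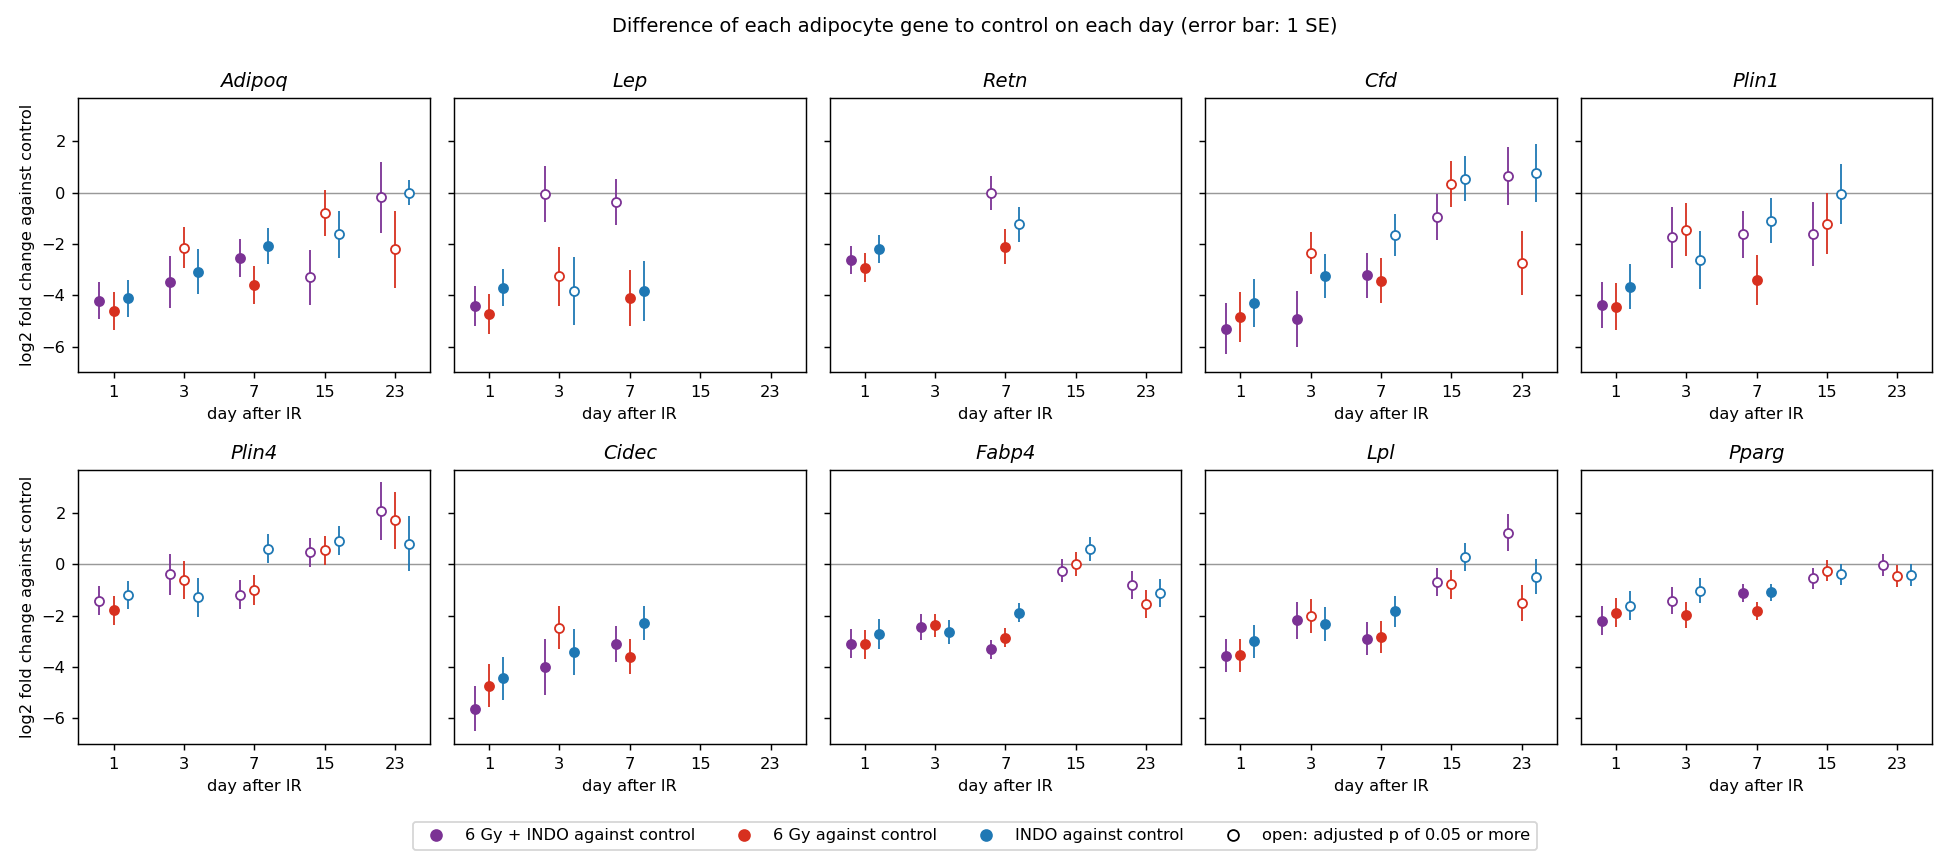
Log2 fold change of each adipocyte gene against the controls of the same day, by day after IR, for 6 Gy + INDO, 6 Gy and INDO from left to right. Error bars are 1 SE, filled points have an adjusted p under 0.05 and open points do not, and genes that did not pass the filter on low counts on a day have no point. On day 1 Adipoq lay at -4.21, -4.61 and -4.11, and on days 15 and 23 no point is filled.

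On day 3 the controls were widely spread, with 18.4 to 141 CPM summed over the 10 genes, and fewer genes passed the test. Adipoq had 0.0822, 0.208, 0.0620 and 0.0281 CPM with 6 Gy + INDO, 0.305, 0.148, 0.0995, 0.391 and 0.211 CPM with 6 Gy and 0.238, 0.0250, 0.166, 0.0520 and 0.101 CPM with INDO, against 0.244, 2.68, 1.51, 0.689 and 0.0114 CPM in controls. Control replicate 2 was the highest and replicate 5 the lowest control for all 10 genes, and replicate 5 lay below every treated tumor for Adipoq and Cidec. Fabp4 kept the groups apart, at 4.44, 5.36, 2.09 and 3.65 CPM with 6 Gy + INDO, 3.96, 2.20, 4.28, 5.29 and 5.17 CPM with 6 Gy and 6.96, 0.899, 4.88, 2.00 and 2.31 CPM with INDO, against 19.8, 30.7, 19.5, 30.2 and 8.80 CPM in controls. It fell in all 3 treatments (log2 fold changes -2.45 ± 0.51, -2.38 ± 0.46 and -2.65 ± 0.47, adjusted p = 0.00402, 0.00504 and 0.00289). It was the 1 gene of the list without overlap in each treatment, against 10.1%, 5.64% and 4.05% of all genes tested.

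Of the 9 genes that passed the filter on low counts on day 3 (Retn did not), 5 were lower with 6 Gy + INDO and 5 with INDO, in both cases Adipoq, Fabp4, Cidec, Cfd and Lpl. With 6 Gy, 2 were lower, Fabp4 and Pparg (-1.97 ± 0.49, adjusted p = 0.0205). Over all 21814 genes tested the shares were 9.43% with 6 Gy + INDO, 4.1% with 6 Gy and 3.95% with INDO. Cfd had 0.205, 0.415, 0.0465 and 0.112 CPM with 6 Gy + INDO, 1.71, 0.561, 0.483, 1.42 and 1.31 CPM with 6 Gy and 1.05, 0.225, 0.994, 0.104 and 0.527 CPM with INDO, against 1.35, 14.5, 8.49, 3.48 and 0.171 CPM in controls. The lowest control overlapped all treatments, and the log2 fold changes were -4.93 ± 1.08, -2.35 ± 0.82 and -3.24 ± 0.86 (adjusted p = 0.00569, 0.084 and 0.0328). Lep had 0.534, 0.581, 0 and 0.0562 CPM with 6 Gy + INDO, 0.0305, 0, 0.0142, 0.0540 and 0.0401 CPM with 6 Gy and 0.0595, 0, 0.0276, 0 and 0 CPM with INDO, against 0.0287, 0.782, 0.589, 0.0405 and 0.0228 CPM in controls. Both 6 Gy + INDO tumors over 0.5 CPM of Lep were among those with over 300 CPM on receptor genes, and the part of those reads in the Lep values was not tested.

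The counts of day 3 rested on single tumors. With INDO, 1 gene (Fabp4) was left in place of 5 without INDO replicate 2, 4 or 5 or without control replicate 2 or 3. With 6 Gy, 1 was left without 6 Gy replicate 2 or 3 or control replicate 2, and 6 were lower without control replicate 5. With 6 Gy + INDO, 2 were left without replicate 1 of that group, 3 without its replicate 4 or control replicate 2 or 3, and none (0) without the 3 tumors over the receptor limit, which left 1 tumor in the group.

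On day 7, 9 genes fell with 6 Gy and 6 in each of the other treatments. Adipoq had 0.203, 0.0304, 0.226, 0.104 and 0.0876 CPM with 6 Gy + INDO, 0.139, 0.0124, 0.0758, 0.0147 and 0.0834 CPM with 6 Gy and 0, 0.518, 0.0623, 0.240 and 0.0789 CPM with INDO, against 0.734, 1.45, 0.378, 0.513 and 1.02 CPM in controls. INDO replicate 2 overlapped the controls, whereas no tumor of 6 Gy + INDO or 6 Gy did. The log2 fold changes of Adipoq were -2.55 ± 0.73 (adjusted p = 0.00903), -3.61 ± 0.74 (0.00243) and -2.08 ± 0.69 (0.0364).

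Fabp4 had the smallest adjusted p values of the list on day 7, with 3.08, 2.43, 4.07, 2.10 and 1.37 CPM with 6 Gy + INDO, 6.00, 3.25, 5.53, 1.36 and 2.88 CPM with 6 Gy and 5.40, 10.03, 3.63, 10.3 and 6.05 CPM with INDO, against 28.2, 34.6, 25.6, 21.99 and 26.3 CPM in controls. It was the only gene of the list whose 3 treated groups were all separate from the controls on this day. Its log2 fold changes were -3.31 ± 0.38 (1.36e-05), -2.85 ± 0.37 (7.99e-05) and -1.88 ± 0.36 (0.0022). Lpl had 7.87, 1.58, 6.84, 3.70 and 5.84 CPM with 6 Gy + INDO, 14.2, 4.11, 1.36, 2.27 and 7.10 CPM with 6 Gy and 7.54, 23.8, 2.16, 12.8 and 8.13 CPM with INDO, against 57.4, 18.8, 49.01, 31.99 and 47.2 CPM in controls. It fell in all 3 treatments (-2.90 ± 0.63, -2.83 ± 0.63 and -1.83 ± 0.60), and with INDO replicate 2 alone overlapped the controls. Its INDO call (adjusted p = 0.0348) was lost without INDO replicate 1, 3, 4 or 5 or control replicate 1, 3 or 5 (0.053 to 0.0771). Pparg had 0.673, 0.395, 0.815, 0.466 and 0.467 CPM with 6 Gy + INDO, 0.302, 0.347, 0.409, 0.396 and 0.361 CPM with 6 Gy and 0.465, 0.959, 0.166, 0.736 and 0.552 CPM with INDO, against 1.73, 1.33, 1.12, 0.854 and 1.41 CPM in controls, and fell with log2 fold changes of -1.12 ± 0.34, -1.82 ± 0.34 and -1.09 ± 0.34.

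Among the droplet genes and hormones the calls of day 7 were not the same in the 3 treatments, a difference that was not itself tested. Plin1 had 0.203, 0, 0.0905, 0 and 0.438 CPM with 6 Gy + INDO, 0.0630, 0.0743, 0, 0.0147 and 0.0695 CPM with 6 Gy and 0, 0.855, 0.0208, 0.128 and 0.105 CPM with INDO, against 0.595, 0.444, 0.485, 0.464 and 0.515 CPM in controls. Only the 6 Gy comparison passed the test (-3.40 ± 0.98, adjusted p = 0.0228, lost without 6 Gy replicate 3 or 4 at 0.0523 and 0.0613), though no tumor of 6 Gy + INDO reached the lowest control. Retn likewise passed with 6 Gy only (-2.10 ± 0.68, adjusted p = 0.04), was at -0.01 ± 0.67 with 6 Gy + INDO and lost the 6 Gy call when any of 8 of the 10 tumors was left out (adjusted p = 0.054 to 0.101). Lep had 0.0469, 0.0608, 0.679, 0 and 0.146 CPM with 6 Gy + INDO, 0, 0, 0.0303, 0.0147 and 0.0139 CPM with 6 Gy and 0, 0.0259, 0, 0.0320 and 0 CPM with INDO, against 0.556, 0.195, 0.118, 0.0122 and 0.264 CPM in controls. Lep fell with 6 Gy (-4.10 ± 1.08) and INDO (-3.83 ± 1.17), and its value with 6 Gy + INDO was -0.37 ± 0.88, with the highest tumor (0.679 CPM) again among those over the receptor limit. Plin4 overlapped in 6 Gy and INDO and passed in no treatment (-1.18 ± 0.58, -0.998 ± 0.57 and 0.61 ± 0.56).

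In all, 6 of 10 genes were lower with 6 Gy + INDO, 9 with 6 Gy and 6 with INDO on day 7, against 21.2%, 10.3% and 11.7% of the 21874 genes tested. Their medians were -2.09, -3.13 and -1.74 on the log2 scale, against 0.03, 0.02 and 0.02 over all genes. All treated tumors were below all controls in 8, 8 and 1 of the 10, against 12.2%, 8.43% and 10.7% of all genes tested. With INDO, 2 genes were left without INDO replicate 1 and 3 without INDO replicate 3 or 5 or control replicate 5. Leaving out single tumors ended the INDO calls of Adipoq (adjusted p = 0.0554 to 0.092), Lep (0.0503 to 0.0599) and Pparg (0.0537 and 0.0575), as well as Lpl. With 6 Gy + INDO, 3 were left (Fabp4, Cidec and Lpl) without the 3 tumors over the receptor limit.

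On day 15 the summed level of the controls, 8.93 to 22.8 CPM, lay within the range of the treated tumors. Adipoq had 0.0241, 0.0263, 0, 0.0971 and 0 CPM with 6 Gy + INDO, 0.147, 0.0846, 0, 0.561 and 0.0717 CPM with 6 Gy and 0.0739, 0.0419, 0.0399, 0.0421 and 0.240 CPM with INDO, against 0.341, 0.139 and 0.398 CPM in controls. All 6 Gy + INDO tumors were below the controls, with a log2 fold change of -3.29 ± 1.06 that did not pass (adjusted p = 0.105). Fabp4 had 3.38, 3.15, 5.17, 2.82 and 4.17 CPM with 6 Gy + INDO, 5.04, 3.89, 1.67, 5.70 and 6.05 CPM with 6 Gy and 2.91, 7.70, 4.38, 3.62 and 14.8 CPM with INDO, against 6.00, 3.49 and 3.58 CPM in controls, so that all groups overlapped. Lep had 0 counts in all 5 tumors of 6 Gy + INDO and was not detectable there at this depth.

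On day 23 Fabp4 had 13.6, 4.21, 3.66, 3.23 and 3.19 CPM with 6 Gy + INDO, 2.88, 3.19, 2.17, 5.19 and 3.46 CPM with 6 Gy and 3.55, 11.3, 3.62, 1.86 and 1.98 CPM with INDO, against 11.2, 11.9 and 6.41 CPM in controls. With 6 Gy it was below all controls, as was Lpl, which had 25.3, 3.98, 2.64, 6.21 and 2.42 CPM with 6 Gy + INDO, 1.69, 2.80, 0.362, 0.945 and 0.494 CPM with 6 Gy and 1.67, 3.37, 3.58, 2.10 and 1.70 CPM with INDO, against 3.11, 2.82 and 4.61 CPM in controls. The log2 fold changes with 6 Gy were -1.54 ± 0.55 for Fabp4 (adjusted p = 0.302) and -1.50 ± 0.69 for Lpl (0.339), and neither passed.

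No gene of the list passed the edgeR test on day 15 (7 tested, without Lep, Cidec and Retn) or day 23 (6 tested, without Plin1 as well) in any treatment. At an unadjusted p under 0.05 the count on day 15 was 1 with 6 Gy + INDO and 0 in the other treatments, and on day 23 it was 3 with 6 Gy and 0 in the others. Of all 21195 genes tested on day 15, 4315, 1430 and 2052 were under that limit with 6 Gy + INDO, 6 Gy and INDO. On day 23 these were 5418, 2997 and 2820 of 21133. DESeq2 called 0 of the list in all 6 comparisons. Of all genes it called 1304, 28 and 156 on day 15 and 1774, 174 and 122 on day 23. Over all genes, edgeR called 0.552% lower with 6 Gy + INDO on day 15, 0.00473% on day 23, and 0% with 6 Gy and with INDO on both days, so 0 of the list is close to this background. All treated tumors were below all controls for 1 of the 10 genes with 6 Gy + INDO on day 15 (Adipoq), 0 with 6 Gy and 0 with INDO, against 5.68%, 1.52% and 2.21% of all genes, and for 0, 2 and 0 on day 23, against 12.6%, 6.83% and 4.63%. With 3 controls on each of these days, a p that misses the threshold does not show that the levels were alike.

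Whether the course over days itself changed was tested within each treatment in 1 fit of all 94 tumors (F test of days 3, 7, 15 and 23 against day 1). In controls all 10 genes changed over days, against 30.2% of the 29373 genes tested, with adjusted p values from 5.09e-05 (Cfd) to 0.0357 (Pparg). All 10 had their highest control mean on day 1. The control means of Cfd were 23.01 ± 14.5, 5.59 ± 5.90, 4.89 ± 1.17, 0.491 ± 0.406 and 0.285 ± 0.434 CPM on days 1, 3, 7, 15 and 23, and those of Fabp4 were 34.6 ± 12.6, 21.8 ± 9.04, 27.4 ± 4.64, 4.36 ± 1.43 and 9.86 ± 3.00 CPM (SD, n = 4, 5, 5, 3 and 3). In treated tumors few genes changed over days: Lep with 6 Gy + INDO (adjusted p = 0.0107), Cfd (0.0182) and Lpl (0.012) with 6 Gy, and none with INDO. The shares over all genes were 43.6%, 23.3% and 25.9%, and that of 6 Gy + INDO was 15.4% without the tumors over the receptor limit. For INDO the count was 1 at an unadjusted p under 0.05 and 0 by DESeq2. Without the tumors over the receptor limit no gene of the list changed over days with 6 Gy + INDO, nor without replicate number 1 or 2, and with 6 Gy none changed without number 4 or 5.

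The difference to control itself changed between days for 5 of 10 genes with 6 Gy + INDO (Lep, Fabp4, Cidec, Cfd and Lpl, adjusted p = 0.0124, 0.00193, 0.0227, 0.00533 and 0.00212), for Fabp4 with 6 Gy (0.0343) and for Fabp4 with INDO (0.0194). These counts stand against 33.6%, 3.82% and 2.66% of all genes tested, and the first share was 6.27% without the tumors over the receptor limit. For the other genes, a difference to control on days 1 to 7 and none on days 15 and 23 is thus a pair of separate results and not a tested change. Leaving out any of the 5 replicate numbers ended the Fabp4 call with 6 Gy, and that with INDO was lost without replicate 2, 3 or 5. With 6 Gy + INDO, 1 gene was left without replicate number 1.

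**Figure D3:**
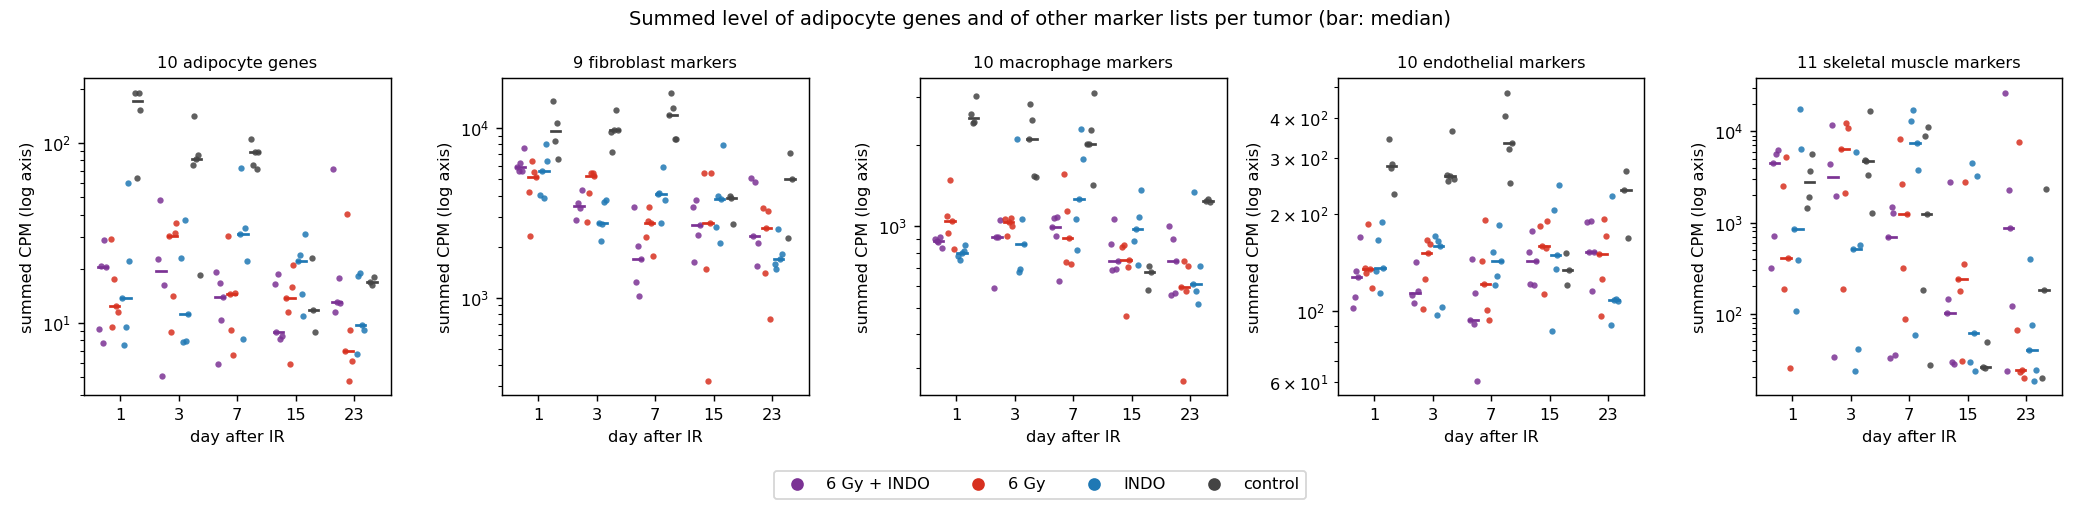
Summed CPM per tumor, on a log axis, of the 10 adipocyte genes and of 4 marker lists of other cells, by day after IR, for 6 Gy + INDO, 6 Gy, INDO and control from left to right. Points are tumors and bars are medians. The control medians of days 1 and 7 stand above the treated medians for adipocyte genes and for fibroblast, macrophage and endothelial markers. On day 15 the control medians of endothelium (135 CPM) and macrophages (680 CPM) lie below those of all 3 treatments. That of adipocyte genes (11.9 CPM) lies above 6 Gy + INDO (8.90) and below 6 Gy (13.8) and INDO (22.1). The control medians of day 23 lie above all treated medians for adipocyte genes (16.9 CPM), fibroblasts (4993), macrophages (1238) and endothelium (238). Skeletal muscle markers range from 18.3 to 26440 CPM and none of them was called in any treatment.

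Averaged over the 5 days with equal weight, 9 of 10 genes were lower in each treatment, all but Plin4, against 23.2% of all genes tested with 6 Gy + INDO, 10.6% with 6 Gy and 17.4% with INDO. The log2 fold changes of Adipoq were -2.77 ± 0.46 with 6 Gy + INDO, -2.66 ± 0.44 with 6 Gy and -2.21 ± 0.42 with INDO. Those of Fabp4 were -2.003 ± 0.23, -1.97 ± 0.23 and -1.58 ± 0.23 (adjusted p = 1.63e-10, 2.56e-10 and 1.78e-07). Cidec was at -3.01 ± 0.45 with 6 Gy + INDO and Lep at -2.83 ± 0.65 with 6 Gy. No fold is given for Lep with 6 Gy + INDO, because its group of day 15 was at 0 and a fitted fold then depends on the prior count. Lep was called there (adjusted p = 0.0413), but not under RLE size factors, housekeeping scaling, no filter or DESeq2, nor without day 1, 7 or 15 or replicate number 1, 2, 3 or 5 (adjusted p = 0.0502 to 0.361). Plin4 was at -0.11 ± 0.35, -0.22 ± 0.34 and -0.05 ± 0.34, and changed sign under other settings. Retn with 6 Gy + INDO (-0.81 ± 0.36, adjusted p = 0.0475) was lost under RLE size factors, housekeeping scaling, no filter and DESeq2 (adjusted p = 0.0518 to 0.199), so that DESeq2 called 7 of 10 genes with 6 Gy + INDO.

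Some of these calls rested on single days or replicate numbers. Without day 1 the calls of Plin1 and Retn with 6 Gy + INDO (adjusted p = 0.15 and 0.496) and of Lep, Plin1 and Cfd with INDO (0.0867, 0.211 and 0.137) were lost, and without day 3 those of Retn with 6 Gy + INDO (0.255) and of Lep, Plin1 and Cfd with INDO (0.0648, 0.0764 and 0.0607). Without day 7 Retn with 6 Gy + INDO (0.0543) and Lep with INDO (0.103) were not called. Leaving out replicate number 3 left 6 of the 9 calls with 6 Gy + INDO, without Lep, Plin1 and Retn (0.111, 0.122 and 0.288), and ended those of Adipoq with 6 Gy (0.0637) and of Adipoq, Cidec and Cfd with INDO (0.0668, 0.0746 and 0.128). Leaving out number 1 ended those of Lep in all 3 treatments (0.343 with 6 Gy + INDO, 0.0797 with 6 Gy and 0.153 with INDO), of Retn with 6 Gy + INDO (0.105) and of Plin1 with INDO (0.143). Without the tumors over the receptor limit the log2 fold change of Plin1 with 6 Gy + INDO was -3.07 in place of -1.69, and Lep lost its calls with 6 Gy (adjusted p = 0.0506) and INDO (0.063).

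Whether the 2 treatments together differed from either alone was compared as a mean over days. No gene of the list was called in 6 Gy + INDO against 6 Gy (1 at an unadjusted p under 0.05, 2 by DESeq2), where 45.7% of all genes were called in either direction. Retn came nearest, at 0.80 ± 0.35 (log2, adjusted p = 0.0516), with 0.188, 0, 0.136, 0.104 and 0.409 CPM with 6 Gy + INDO and 0.0882, 0.0248, 0.0455, 0.0294 and 0.0139 CPM with 6 Gy on day 7. These groups overlapped. Against INDO none was called either (2 at an unadjusted p under 0.05, 1 by DESeq2), against 10.8% of all genes, and Cfd came nearest (-1.17 ± 0.43, adjusted p = 0.0605). Housekeeping scaling called 2 genes against 6 Gy and RLE factors 1. Without the tumors over the receptor limit the shares of all genes called were 21.8% against 6 Gy and 0.549% against INDO.

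The interaction compares the fall under both treatments with the sum of the falls under each alone, on the log2 scale, and a positive value means that the combined fall was smaller than that sum. Such a value also arises where all 3 treatments lie at a like level below the controls. Adipoq averaged 0.108 CPM with 6 Gy + INDO, 0.127 with 6 Gy and 0.137 with INDO over all days, with 0 counts in 4 tumors of each. Plin1 had 0 counts in 5, 6 and 6 tumors. The part of this floor in the values was not tested. It was positive and passed for 6 of 10 genes, against 5.65% of all genes: Adipoq (2.10 ± 0.66, adjusted p = 0.0348), Plin1 (2.31 ± 0.73, 0.0352), Fabp4 (1.55 ± 0.31, 0.000729), Pparg (1.12 ± 0.29, 0.00734), Retn (2.26 ± 0.50, 0.00182) and Lpl (1.99 ± 0.41, 0.00105). Cidec (1.81 ± 0.64, 0.0655), Cfd (1.41 ± 0.62, 0.16) and Plin4 (0.15 ± 0.47, 1) did not pass, and no value is given for Lep, whose group at 0 counts leaves no usable error. Without the tumors over the receptor limit 1 gene was called, Fabp4 (1.36), against 2.26% of all genes. The value of Plin1 was then 0.38 in place of 2.31, whereas Adipoq (1.97), Pparg (1.05), Retn (1.73) and Lpl (1.38) lost their calls with values closer to those of all tumors. The interaction called 3 genes without day 3, without day 7 or without replicate number 2. Fabp4, Retn and Lpl kept their calls when any day or replicate number was left out, whereas Adipoq lost its call without day 1, 3, 7 or 23 (adjusted p = 0.052 to 0.299) or replicate number 1, 2, 3 or 4 (0.0762 to 0.231), Plin1 without the same days (0.103 to 0.185) or number 1, 2, 4 or 5 (0.0574 to 0.255), and Pparg without day 3 or 7 (0.0622 and 0.116) or replicate number 2 (0.125).

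Markers of other host cells moved in the same direction, and their part in the results was not tested. As a mean over days, 10 of 10 endothelial markers were lower with 6 Gy + INDO, 9 with 6 Gy and 10 with INDO, as were 7, 8 and 5 of 9 macrophage markers and 9, 9 and 9 of 9 fibroblast markers, against 23.2%, 10.6% and 17.4% of all genes tested. The median log2 fold changes of these lists were -0.86, -0.75 and -0.71 for endothelium, -0.56, -0.57 and -0.31 for macrophages and -0.98, -0.84 and -0.90 for fibroblasts. On day 1 the endothelial markers summed to 102 to 170 CPM with 6 Gy + INDO, 118 to 186 with 6 Gy and 114 to 190 with INDO, against 232 to 343 in controls. The fibroblast markers summed to 5583 to 7585, 2322 to 6399 and 3846 to 8049 CPM on that day, against 6604 to 14400 in controls, and the macrophage markers to 835 to 909, 826 to 1484 and 752 to 850 CPM, against 2395 to 3025. On day 15 the endothelial markers summed to 120 to 177 CPM with 6 Gy + INDO, 113 to 191 with 6 Gy and 86.9 to 247 with INDO, against 121 to 152 in controls, and the macrophage markers to 690 to 1063, 467 to 856 and 722 to 1362 CPM, against 583 to 716 in controls. The fibroblast markers summed to 1614 to 3781, 323 to 5447 and 2087 to 7900 CPM, against 2717 to 3966 in controls, so that the controls of day 15 lay within the range of the treated tumors in all 3 lists. Day 23 sums follow in the same order of treatments. Macrophage markers summed to 558 to 1006, 269 to 746 and 517 to 1341 CPM, against 1230 to 1257 in controls. Endothelial markers summed to 116 to 190, 96.2 to 194 and 90.4 to 229 CPM, against 169 to 273 in controls. Fibroblast markers summed to 1535 to 5077, 749 to 3366 and 1465 to 2539 CPM, against 2246 to 7096 in controls. No marker of the 3 lists was at 0 in all tumors, and Marco, of macrophages, was the lowest (0.0377 CPM on average). Of 8 tumor epithelium markers, 3 were lower with 6 Gy + INDO, 3 with INDO, and 1 was higher with 6 Gy.

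Skeletal muscle markers ranged widely between tumors of the same treatment. None of the 11 was called as a mean over days in any treatment by edgeR or DESeq2 (1 at an unadjusted p under 0.05 with 6 Gy, 0 in the others), and none of 11 skin markers was called by edgeR (0 at an unadjusted p under 0.05, and 1, 1 and 0 by DESeq2 with 6 Gy + INDO, 6 Gy and INDO). Of all genes tested, 52.8%, 19.8% and 34.2% were called in either direction by edgeR with 6 Gy + INDO, 6 Gy and INDO. The muscle markers summed to values from 23.7 to 26440 CPM with 6 Gy + INDO, 19.5 to 12420 CPM with 6 Gy and 18.3 to 17440 CPM with INDO, against 19.7 to 16570 CPM in controls. Control sums were 1454 to 5696 CPM on day 1, 1268 to 16570 on day 3 and 27.3 to 11090 on day 7. They were 25.4 to 49.5 CPM on day 15 and 19.7 to 2354 on day 23. On day 15 treated sums were 27.9 to 2783 CPM with 6 Gy + INDO and 30.0 to 2795 with 6 Gy. With INDO they were 23.7 to 4452 CPM. Plin4 followed these markers (r = 0.77 over 94 tumors and 0.74 for deviations from the group means), and so did Lpl (0.64 and 0.66) and Fabp4 (0.53 and 0.64), while Cidec did so least closely of these (0.35 and 0.25). These values describe tumors that share libraries and treatments. The part of muscle in the course of Plin4, Lpl and Fabp4 over days in controls was not tested. On day 23, Plin4 had 31.1, 2.16, 5.91, 5.85 and 6.18 CPM with 6 Gy + INDO and 1.75, 33.9, 1.95, 2.56 and 1.29 CPM with 6 Gy, against 1.49, 1.07 and 4.86 CPM in controls. The highest tumor of each treated group also had the most muscle, 26440 CPM in 6 Gy + INDO replicate 1 and 7621 CPM in 6 Gy replicate 2. Fabp4 followed the endothelial markers (r = 0.83 and 0.63). Of the 7 lists compared, the markers of fat cell precursors had the highest r with Fabp4 (0.88 and 0.68) and with Lpl (0.89 and 0.78), and their r with Plin4 was 0.55 and 0.59.

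**Figure D4:**
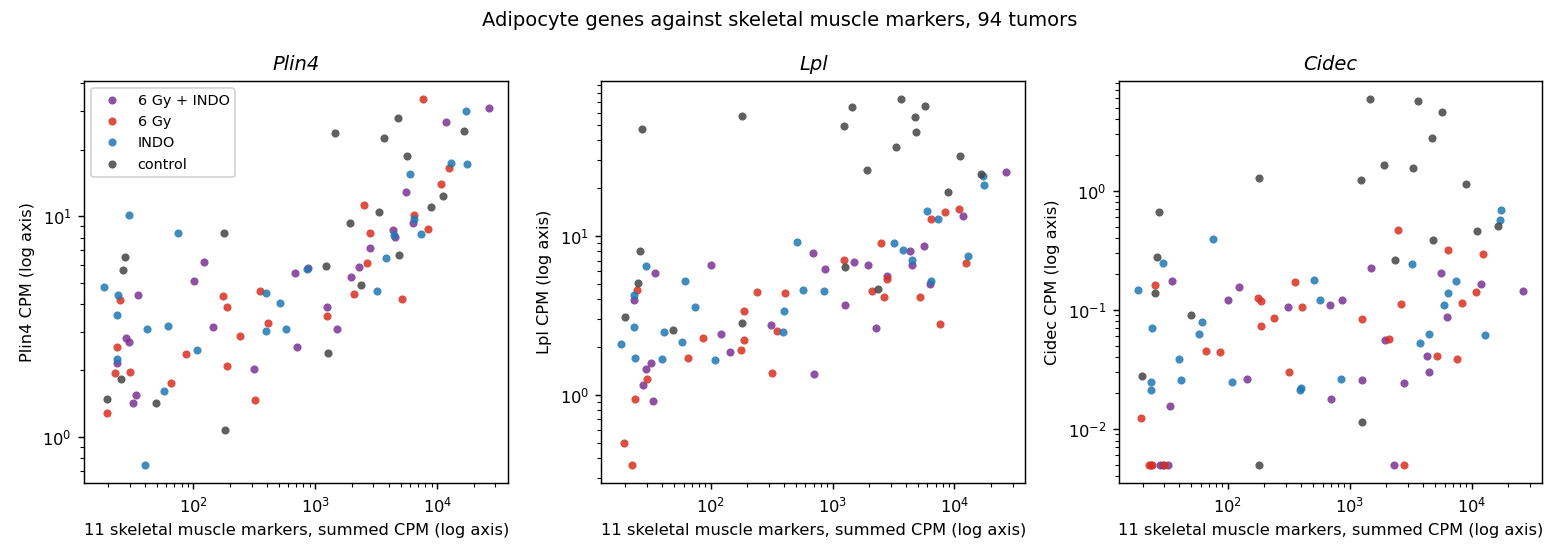
CPM of Plin4, Lpl and Cidec against the summed CPM of 11 skeletal muscle markers in 94 tumors, both on log axes, with 1 point per tumor colored by treatment and tumors with 0 counts of Cidec drawn at the bottom. Plin4 is higher in tumors with more muscle in all treatments (r = 0.77), whereas Cidec has its highest values in control tumors (r = 0.35).

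The 10 genes varied together. Over 94 tumors, the median correlation of a gene with the other 9 was between 0.55 (Plin4) and 0.83 (Plin1) on log2(CPM + 0.5), and for deviations from the group means between 0.40 (Fabp4) and 0.69 (Plin1). Among 14119 other genes with a mean log2(CPM + 0.5) of at least 1, the 10 most like the mean z score of the list were Adamts5 (r = 0.865), Adamts15 (0.852), Clec10a (0.836), Ggt5 (0.821), Prelp (0.812), Cd36 (0.811), Dpt (0.809), Plpp3 (0.808), Abi3bp (0.808) and Lbp (0.805). Adamts5 and Adamts15 encode matrix proteases, Prelp, Dpt and Abi3bp matrix proteins, Clec10a a lectin of macrophages and dendritic cells, Cd36 a fatty acid transporter and Lbp a binding protein for bacterial lipopolysaccharide. Adamts5 averaged 5.19 CPM in treated tumors on day 1 and 35.8 CPM in controls, and Cd36 3.64 and 22.1 CPM. Of these 10 genes, 6 were also among the 10 most like the list in deviations from the group means, where Cd36 (0.677) and Dpt (0.674) led.

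Other genes of fat biology were followed in lists by role, as a mean over days, where 23.2% of all genes tested were lower with 6 Gy + INDO, 10.6% with 6 Gy and 17.4% with INDO. Of the markers of fat cell precursors, 7 of 10 were lower with 6 Gy + INDO, 9 with 6 Gy and 7 with INDO. None was higher. Pi16, a marker of the stem-like precursors of the fat depot, had log2 fold changes of -1.98 ± 0.18 with 6 Gy + INDO, -1.78 ± 0.17 with 6 Gy and -1.81 ± 0.17 with INDO (adjusted p = 2.33e-14, 1.39e-12 and 1.34e-12). Zfp423, a regulator of commitment to the fat lineage, was at -0.86 ± 0.16, -1.17 ± 0.15 and -0.51 ± 0.15, Cd34 at -1.25 ± 0.14, -1.02 ± 0.14 and -1.18 ± 0.14, and Pdgfra, which fibroblasts also express and which is in their list too, at -1.02 ± 0.10, -0.74 ± 0.10 and -0.93 ± 0.10. All 4 fell in each treatment, and the INDO call of Zfp423 was lost under housekeeping scaling and without day 1, 3 or 7 or replicate number 1 (adjusted p = 0.0669 to 0.183). Fibroblast and endothelial markers also fell, and the part of those cells in the falls of the precursor markers was not tested.

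Of 8 transcription factors of fat cells, 4 were lower with 6 Gy + INDO, 4 with 6 Gy and 2 with INDO. Cebpa, the partner of PPARG in maintaining the fat cell program, was at -0.73 ± 0.16 (adjusted p = 9.07e-05), -0.99 ± 0.15 (7.69e-07) and -0.30 ± 0.15 (0.131), and did not pass with INDO. Ebf2, a factor of brown and beige fat cells, fell in all 3 (-0.88 ± 0.21, -1.19 ± 0.21 and -0.91 ± 0.21, lost with 6 Gy + INDO without day 7 and with INDO without day 3, at 0.0515 and 0.056), as did Nr1h3, the oxysterol receptor LXR alpha (-0.68 ± 0.15, -0.51 ± 0.15 and -0.52 ± 0.15), with its 6 Gy call lost without day 1 or 7 or replicate number 2 or 3 (adjusted p = 0.0694 to 0.31) and its INDO call without day 1 or 7 or number 3 (0.0542 to 0.124). Rxra, the DNA-binding partner of PPARG, was at -0.22, -0.24 and -0.19, where INDO did not pass and the 6 Gy call was lost under 10 alternatives (0.0603 to 0.227), among them leaving out day 1, 3, 7 or 23. Scaling to housekeeping genes shifted the all-gene median upward by 0.226 (log2) with 6 Gy + INDO and 0.102 with INDO, under which the value of Rxra with 6 Gy + INDO was 0.018 (adjusted p = 0.975). Of the 14 housekeeping genes, 11 were themselves called with 6 Gy + INDO, 5 with 6 Gy and 9 with INDO under TMM scaling. The shares of all genes called in either direction were 52.8%, 19.8% and 34.2%. The 6 Gy + INDO call of Rxra was also lost under RLE size factors, no filter and DESeq2 (adjusted p = 0.0534 to 0.0866). It was lost too without day 1, 3, 7 or 23, replicate number 2 or 3 or the tumors over the receptor limit (0.0595 to 0.648).

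Of 12 other genes of fat cell identity and hormones, 3 were lower in each treatment and 1 was higher with 6 Gy. Trarg1, a regulator of the glucose transporter GLUT4, fell in each (-1.65 ± 0.19, -1.83 ± 0.19 and -1.16 ± 0.18), and so did Cd36 (-1.42 ± 0.30, -1.48 ± 0.30 and -1.14 ± 0.30). Aqp7, the glycerol channel of fat cells, was lower with 6 Gy (-1.04 ± 0.36, adjusted p = 0.0314), and Nrip1, a corepressor in fat, was the gene that rose (0.20 ± 0.07, 0.0272). Both calls were lost without day 1 (adjusted p = 0.287 and 0.221), day 15 (0.098 and 0.0736) or replicate number 1 (0.403 and 0.0776), 3 (0.175 and 0.171) or 4 (0.153 and 0.136). That of Aqp7 was also lost without day 7, replicate number 2 or the filter (0.0501 to 0.113) and without the tumors over the receptor limit, where its value was -0.39 (0.552), and that of Nrip1 under housekeeping scaling (0.0626). Of 15 genes of fat synthesis, 7 were lower with 6 Gy + INDO, 1 with 6 Gy and 4 with INDO, shares of which those with 6 Gy and INDO are near those of all genes. Pck1, which makes the glycerol backbone of triglyceride in fat cells, was the 1 gene lower with 6 Gy and fell in each treatment (-1.96 ± 0.49, -2.34 ± 0.47 and -1.87 ± 0.46, the first lost without replicate number 3 at 0.0745).

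Of 10 genes of fat breakdown and droplets, 8 were lower with 6 Gy + INDO, 5 with 6 Gy and 4 with INDO. Mgll, the last lipase of the breakdown of triglyceride, fell in each (-0.64 ± 0.21, -0.75 ± 0.21 and -0.79 ± 0.21), as did Cav1, a coat protein of membrane pits that endothelium also makes in quantity (-0.84 ± 0.11, -0.56 ± 0.11 and -0.85 ± 0.11). Lipe, the hormone-sensitive lipase, was at -0.28, -0.24 and -0.03, and Bscl2, the droplet assembly protein seipin, at -0.21, -0.40 and -0.11, where INDO did not pass in either gene. Under housekeeping scaling neither passed with 6 Gy + INDO (-0.051 and 0.016). Bscl2 with 6 Gy + INDO was also lost without day 1, 3 or 7, replicate number 2 or the tumors over the receptor limit (adjusted p = 0.108 to 0.352). The 6 Gy call of Lipe was lost without day 1, 3 or 7 or replicate number 3 or 5 (0.0591 to 0.194), and that of Mgll without replicate number 2 (0.0989), while its 6 Gy + INDO call was lost without day 3, number 2 or the tumors over the receptor limit and under housekeeping scaling (0.119 to 0.212). Abhd5, a coactivator of the first lipase, rose with 6 Gy (0.24 ± 0.08, adjusted p = 0.017) and fell with INDO (-0.33 ± 0.08, 0.000566), but the rise was lost without day 1, 3, 7 or 15, replicate number 1, 2 or 5 or the tumors over the receptor limit (adjusted p = 0.0626 to 0.125), and the fall without day 7 (0.0504).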

How the data were processed

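Total RNA libraries of 94 4T1 tumors were made by the authors with a stranded Illumina total RNA kit, and the labels and the study's methods name different versions of it. The submitters' processing notes name cutadapt, STAR, Partek 11.0.24.0328 and mm10. No source used here names the counting tool, its strand setting or the annotation. The deposited table holds estimated counts (expected counts) per gene, not normalized by the authors, for 1 column per tumor.

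Estimated counts were rounded to whole numbers. Genes were filtered with filterByExpr, scaled with TMM and tested with the quasi-likelihood F test of edgeR 4.0.16 (limma 3.58.1, R 4.3.3), with Benjamini-Hochberg adjustment over all genes tested and a threshold of 0.05. The study used the GSA algorithm of Partek, which was not used here. Treatments were compared with control within each of 5 days (15 comparisons), and all 94 tumors entered 1 fit for the 6 comparisons as a mean over days and for the change over days. Alternatives were RLE size factors, scaling to 14 housekeeping genes, no filter, DESeq2 1.42.0, a replicate block, leaving out tumors, days and the 11 tumors over 300 CPM on receptor genes, and the study's limits. An SE is the log2 fold change divided by the root of its F. Totals were 20995830 to 109300093 counts per tumor, which sets the precision of rare genes. The labels do not give litters or cages, and p-values measure the spread between these tumors.

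The genes described and all lists were chosen with earlier results of these data known. Genes named beside the 10 adipocyte genes were the 10 most correlated with them (log2(CPM + 0.5)) and, of each fat list, up to 4 called genes with the smallest p after 6 Gy and up to 2 called in the other direction. Genes of the receptor list called with INDO or 6 Gy + INDO only were named after their values were seen. Gene positions are from the annotation of GRCm38.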

Additional observations from a re-analysis of the deposited data

Results flagged for a closer look

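In groups of 4 or 5 tumors, 33 of 179 gene and group combinations had 1 tumor whose gap to the nearest other tumor, divided by the range of its group, was above Dixon's critical value at the 95% level, a limit that chance passes in about 1 in 20 groups. Of the 33, 32 were high and 7 were in 6 Gy + INDO. The low one was control day 1 replicate 2, with 0.985 CPM of Adipoq, against 4.19 to 4.75 CPM in the other controls of that day. Several of the high ones came from the same tumors.

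6 Gy day 1 replicate 1 was high for Adipoq (0.401 CPM), Plin4 (11.2), Cidec (0.464) and Cfd (2.36). INDO day 1 replicate 4 was high for Cidec (0.686 CPM), Cfd (4.34) and Lpl (21.1), and INDO day 7 replicate 2 for Plin1 (0.855 CPM), Cidec (0.570) and Cfd (5.37). INDO day 3 replicate 3 was high for Plin1 (0.469 CPM) and Plin4 (15.5). 6 Gy + INDO day 15 replicate 4 was high for Adipoq (0.0971 CPM) and Plin1 (0.227), and replicate 1 of that group for Cidec (0.121). 6 Gy + INDO day 23 replicate 1, with the most muscle, was high for Plin4 (31.1 CPM), Fabp4 (13.6) and Lpl (25.3). INDO day 23 replicate 3 was high for Lep (0.0929 CPM), Plin1 (0.302) and Cfd (1.72).

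Other tumors were high for 1 gene. They were 6 Gy day 15 replicate 4 (0.561 CPM), INDO day 15 replicate 5 (0.240) and 6 Gy day 23 replicate 1 (0.0750) for Adipoq, and 6 Gy + INDO day 7 replicate 3 (0.679), INDO day 15 replicate 3 (0.438) and 6 Gy day 23 replicate 5 (0.0371) for Lep. 6 Gy day 23 replicate 2 stood out for Plin4 (33.9 CPM), INDO day 23 replicate 2 for Fabp4 (11.3), 6 Gy day 3 replicate 1 for Retn (0.198), and 6 Gy day 15 replicate 3 (0.826) and INDO day 15 replicate 1 (0.912) for Pparg.

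The difference to control varied between days for Lep (edgeR, adjusted p = 0.0124), Fabp4 (0.00193), Cidec (0.0227), Cfd (0.00533) and Lpl (0.00212) with 6 Gy + INDO, and for Fabp4 with 6 Gy (0.0343) and INDO (0.0194). The combined effect differed from the sum of the separate effects for Adipoq (log2 2.10), Plin1 (2.31), Fabp4 (1.55), Pparg (1.12), Retn (2.26) and Lpl (1.99). The part of levels already near 0 counts under each treatment alone was not tested.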

How the results depend on the processing

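On day 1 no count of adipocyte genes moved by over 1.5 times under any alternative. On day 3, 5 genes were lower with 6 Gy by DESeq2 and with all 94 tumors in 1 fit, and 7 under the study's limits (unadjusted p under 0.05 and at least 2-fold), in place of 2. With INDO on day 3, 3 were lower under housekeeping scaling and without the tumors over the receptor limit and 8 under the study's limits, in place of 5, and with 6 Gy + INDO 0 without those tumors. On day 7, 3 were lower with INDO under housekeeping scaling and 3 with 6 Gy + INDO without those tumors, in place of 6. The study's limits gave 1 gene with 6 Gy + INDO on day 15 and 3 with 6 Gy on day 23, in place of 0.

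As a mean over days, 6 Gy + INDO against 6 Gy had 1 gene under RLE factors, 2 under housekeeping scaling, 2 by DESeq2 and 1 without day 15, and against INDO 1 each by DESeq2, without day 15 and under the study's limits, in place of 0. The interaction had 1 gene without the tumors over the receptor limit, 3 without day 3 and 3 without day 7, in place of 6. Change over days with 6 Gy + INDO had 0 without those tumors. The difference between days had 0 with 6 Gy without the filter or without those tumors, and 3 with INDO by DESeq2. Of the 10 genes most like the list, 6 were kept for deviations. Plin4 changed sign in its mean over days. With 6 Gy + INDO it was at 0.103 under housekeeping scaling, 0.188 without day 1 and 0.187 without day 7, and without 1 replicate number at -0.283 to 0.086. With 6 Gy it was at 0.16 without day 1, and at -0.655 to 0.086 without 1 replicate number. With INDO it was at 0.057 under housekeeping scaling, 0.119 without the tumors over the receptor limit, 0.218 without day 1 and 0.277 without day 3, and at -0.164 to 0.053 without 1 replicate number, including 0.005. The cause of these changes was not tested, beyond the fewer tumors or days of some settings.

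Leaving out 1 tumor gave 9 to 10, 8 to 10 and 7 to 9 genes on day 1 with 6 Gy + INDO, 6 Gy and INDO, 2 to 6, 1 to 6 and 1 to 6 on day 3, 6 to 6, 7 to 9 and 2 to 8 on day 7, and 0 to 0 on days 15 and 23. Leaving out 1 replicate number gave 6 to 9, 8 to 9 and 6 to 9 as a mean over days, 0 to 0 against 6 Gy, 0 to 1 against INDO and 3 to 5 for the interaction. It gave 0 to 1, 0 to 2, 0 to 1 and, in controls, 8 to 9 for change over days, and 1 to 6, 0 to 0 and 0 to 3 for the difference between days.

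Whether the replicate numbers pair the tumors was not settled. Of 132 pairs of the same number, 57 had a correlation of deviations over 0.1 (median 0.062, range -0.608 to 0.699). Pairs of different numbers were not compared with them. With the replicate block, 1 gene was lower with INDO on day 3 and 2 on day 7, 1 was called in 6 Gy + INDO against 6 Gy, 1 against INDO, and 2 differed between days with INDO.

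Depth limits the rare genes: Lep, Cidec and Retn were not tested on days 15 and 23, and Plin1 not on day 23. Housekeeping scaling shifted the all-gene median by -0.136 to 0.342 (log2) within days. As a mean over days, 11, 5 and 9 of the 14 housekeeping genes were themselves called with 6 Gy + INDO, 6 Gy and INDO.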

Other observations

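Receptors of fat hormones, in 1 list with the insulin receptor Insr and its substrate Irs1, were not among the genes chosen to mark fat cells. As a mean over days, 4 of the 7 genes of this list were lower and 1 higher with 6 Gy + INDO, 2 were lower with 6 Gy, and 4 were lower and 1 higher with INDO (edgeR, adjusted p under 0.05). Of all genes tested, 23.2% were lower and 29.6% higher with 6 Gy + INDO, 10.6% lower with 6 Gy, and 17.4% lower and 16.8% higher with INDO. Lepr, the leptin receptor, had log2 fold changes of -1.40 ± 0.16 with 6 Gy + INDO, -1.14 ± 0.16 with 6 Gy and -1.31 ± 0.16 with INDO (adjusted p = 1.65e-10, 4.8e-08 and 3.3e-09). Cdh13, the cadherin that binds adiponectin and that endothelium and muscle display, was at -0.56 ± 0.10, -0.57 ± 0.10 and -0.54 ± 0.10. Adipor1 and Adipor2, the adiponectin receptors that most cells express, were lower with 6 Gy + INDO (-0.41 ± 0.06 and -0.31 ± 0.08) and with INDO (-0.25 ± 0.05 and -0.26 ± 0.08). Under housekeeping scaling those of Adipor2 did not pass (adjusted p = 0.308 and 0.0653). With INDO, Adipor2 was also lost without day 7 or 15 or replicate number 2 or 3 (0.0739 to 0.261), and Adipor1 without number 3 (0.0534). The genes that rose are not receptors of fat hormones. Irs1 was higher with 6 Gy + INDO (0.32 ± 0.10, adjusted p = 0.00433) and the insulin receptor Insr with INDO (0.21 ± 0.05, 0.00141). The Irs1 call was lost without day 1 or replicate number 1 or 3 (adjusted p = 0.0776 to 0.142), and that of Insr without day 1 (0.0611).

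Genes of thermogenic fat, which marks brown and beige fat cells, gave no call. Of 9 genes 8 were tested, and edgeR called 0 in each treatment (0 with 6 Gy + INDO, 1 with 6 Gy and 0 with INDO at an unadjusted p under 0.05, and 0 by DESeq2). Of all genes tested, edgeR called 52.8%, 19.8% and 34.2% in either direction with 6 Gy + INDO, 6 Gy and INDO.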
